A study of Mus musculus with 2 samples.

Results

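Endothelial cells carry a set of scavenger and endocytic receptors that take up hyaluronan, modified lipoproteins, glycoproteins and particles from lymph or blood, and 8 of these receptor genes are described here across the cells of tumour-draining mouse lymph nodes. They were chosen by name, all 8 of them among the 25815 genes of the count tables: Lyve1, Mrc1, Pla2r1, Stab1, Stab2, Msr1, Marco and Clec4g. The sorted cells came from inguinal nodes and were profiled as single cells in 1 library per genotype, 13 pooled nodes of wild type (WT) mice and 9 pooled nodes of ATG5LEC-KO mice, whose sample is labelled ATG5 KO. By cell sorting, live cells were gated as endothelial when positive for CD31 and negative for CD45 and Ter119, and as immune when positive for CD45 and negative for the other pair. Both sorts were combined before capture, so the balance of endothelial and immune cells was fixed at that step. Nodes of both genotypes drained tumours. The Cre driver, the tumour, and the age and strain of the mice are not given in the sources used here. With 1 library per genotype no test was possible: intervals below are exact 95% intervals that cover counting error only, not variation between cells, animals or pools, and differences between the libraries are differences between these 2 pools.

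Atg5 itself was read first. It had 234 unique molecular identifiers (UMIs, each standing for 1 captured transcript), or a relative abundance of 40.6 CPM (counts per 1000000 UMIs of a class, mitochondrially encoded genes left out), in lymphatic endothelial cells (LECs) of the WT library, and 70 UMIs or 44.3 CPM in those of the ATG5 KO library. In blood endothelial cells (BECs) it had 35.1 and 34.1 CPM. Counts at the 3' end need not fall with a deletion further upstream, so these values do not check the genotype label, and the second library is called by its label throughout. The 2 libraries held 23649554 and 23089918 UMIs, and 3859 and 4149 cells entered the clustering. LECs numbered 716 and 212, with median depths of 8208.5 and 7882.5 UMIs, BECs 529 and 483, and myeloid cells 51 and 71. Of the called barcodes, 15 occurred in both libraries. Cells that could be assigned a sex were 71.1% male among the WT LECs and 50.9% among the ATG5 KO LECs, and mitochondrially encoded genes took 7.24% and 10.4% of LEC UMIs.

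In the lymph node, LECs form distinct niches: ceiling cells face the capsule side of the subcapsular sinus, floor cells line its inner wall, and medullary and paracortical cells line the inner sinuses, where lymph is filtered before it leaves the node. Lyve1 is a hyaluronan receptor related to Cd44. Mrc1, the macrophage mannose receptor CD206, and Pla2r1, a receptor for secreted phospholipases A2, belong to the same family of multi-lectin endocytic receptors. The stabilins Stab1 and Stab2 are very large receptors of sinusoidal endothelium that clear oxidised lipoproteins, hyaluronan and matrix fragments, Msr1 and Marco are class A scavenger receptors best known from macrophages, and Clec4g is a C-type lectin of sinusoidal endothelium in liver and node.

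The 8 genes are spread over 6 chromosomes of GRCm38 (mm10) in the GENCODE vM21 annotation and are all protein coding. Lyve1 (ENSMUSG00000030787.4) lies on the minus strand of chromosome 7 from 110850607 to 110863239. Mrc1 (ENSMUSG00000026712.3) lies on the plus strand of chromosome 2 from 14229392 to 14332057, and Pla2r1 (ENSMUSG00000054580.14) on the minus strand of the same chromosome from 60417543 to 60553308. Stab1 (ENSMUSG00000042286.13) is on chromosome 14 from 31139013 to 31168641 and Stab2 (ENSMUSG00000035459.18) on chromosome 10 from 86841198 to 87008025, both on the minus strand. Msr1 (ENSMUSG00000025044.16) and Clec4g (ENSMUSG00000074491.9) are on the minus strand of chromosome 8, from 39581685 to 39642673 and from 3707064 to 3720651. Marco (ENSMUSG00000026390.7) is on the minus strand of chromosome 1 from 120474538 to 120505024. The 3' end of Stab1 overlaps the opposite-strand gene Nt5dc2 by 112 bases, and an antisense gene, Gm16268, covers the 3' end of Stab2. Whether the counting used strand is not given in the sources used here, so reads of such pairs may not be separable. Nt5dc2 itself had 15.8 CPM in WT LECs and 12.7 in ATG5 KO LECs.

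Promoter sequences were at hand from RefSeq (GRCm38.p6) for 6 of the 8 genes, Lyve1 and Msr1 having no entry. Those of the 4 genes that were highest in the medullary or paracortical-like LECs described below are shown, because that class held the highest WT level of each. Each runs 5' to 3' on the gene's strand and ends at the base before the annotated start of the gene. Capitals mark matches on either strand to the MAF half-site TGCTGA, the GATA core GATAA or the ETS core GGAAG, which reads CTTCC on the opposite strand.
Mrc1, chr2:14229164-14229391, plus strand: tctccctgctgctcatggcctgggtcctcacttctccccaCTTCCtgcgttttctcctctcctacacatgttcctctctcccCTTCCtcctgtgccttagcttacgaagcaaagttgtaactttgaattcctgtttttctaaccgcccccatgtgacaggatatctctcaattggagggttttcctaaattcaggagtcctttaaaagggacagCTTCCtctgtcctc
Stab1, chr14:31168642-31168891, minus strand: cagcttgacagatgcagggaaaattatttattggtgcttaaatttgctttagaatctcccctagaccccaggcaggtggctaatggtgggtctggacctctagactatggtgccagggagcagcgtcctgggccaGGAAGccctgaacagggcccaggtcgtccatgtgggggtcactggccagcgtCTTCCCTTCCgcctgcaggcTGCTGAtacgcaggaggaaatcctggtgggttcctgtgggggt
Stab2, chr10:87008026-87008192, minus strand: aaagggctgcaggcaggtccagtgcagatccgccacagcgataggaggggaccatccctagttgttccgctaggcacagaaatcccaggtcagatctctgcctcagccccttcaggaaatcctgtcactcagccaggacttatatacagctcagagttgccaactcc
Pla2r1, chr2:60553309-60553558, minus strand: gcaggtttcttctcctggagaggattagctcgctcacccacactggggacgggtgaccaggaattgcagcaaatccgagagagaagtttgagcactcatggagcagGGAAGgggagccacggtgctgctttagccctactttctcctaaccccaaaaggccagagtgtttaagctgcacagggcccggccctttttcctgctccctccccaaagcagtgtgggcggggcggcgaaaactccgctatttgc
The Stab1 window of 250 bases held 1 TGCTGA, followed by 37 bases up to its end, a motif present in 16.1% of 32851 promoter windows of that length. It also held 3 ETS cores, of which 2 adjoin each other. The Mrc1 window of 228 bases held 3 ETS cores, the last followed by 9 bases up to the window's end, and the Pla2r1 window of 250 bases held 1. An ETS core was present in 64.1% of windows of 250 bases and in 61.1% of those of 228 bases, so these matches are common ones. The Stab2 window of 167 bases held none of the 3 motifs, and GATAA was in none of the 4 windows, against 22.6% of windows of 250 bases. No searched motif was common to all 4 windows.

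In the WT library all 8 receptors were at higher CPM in LECs than in BECs by at least 2-fold, where 12.8% of the 12017 genes with at least 20 UMIs in the pair of classes were. That count describes the set and is no test of it, because the receptors were chosen with earlier results of these data known. Lyve1, Stab1 and Stab2 reached 20 UMIs in BECs too, whereas the other receptors did so only through LECs. Pla2r1 had 41 UMIs in LECs and 1 in BECs, and Marco had 43 and 0. The separation was widest for the receptors that BECs hardly held. Lyve1 had 7960 UMIs in WT LECs and 39 in WT BECs, a ratio of 88.9 (65 to 125), and Stab2 had 5391 and 28, a ratio of 83.9 (58 to 126). Msr1 stood at 1630 against 2 UMIs, a ratio of 355 (98.1 to 2934), and Mrc1 at 269 against 2, a ratio of 58.6 (16.1 to 486). Clec4g, with 93 UMIs in LECs and 0 in BECs, was at least 13.5-fold higher in LECs, the bound being set by a floor of 3 counts over the class. Stab1 was the receptor that the blood endothelium shared: 823 CPM in WT LECs stood against 284 in WT BECs, a ratio of 2.89 (2.67 to 3.14), and 1534 against 398 in the ATG5 KO library, a ratio of 3.85 (3.58 to 4.15).

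Lyve1, Stab1 and Stab2 were found in few B cells, which should lack them. The part of free RNA in the signal was not tested. Lyve1 had a UMI in 40.1% of WT LECs and in 0.738% of 1355 WT B cells, whose median depth was 2695 UMIs. Cells with at least 3000 UMIs were also thinned to that number, and shallower cells were left out, here and in all thinned values below. Left out were 46 WT LECs and 861 of the 1355 WT B cells, and the thinned shares were 35.5% and 0.81%. After thinning, Stab1 was found in 80.3% of WT LECs and 1.42% of WT B cells, and Stab2 in 68.1% and 1.21%. In the ATG5 KO library B cells held Lyve1 in 0.319% of cells and Stab1 in 0.638%. The 2.65% of WT BECs and 2.48% of ATG5 KO BECs with a Lyve1 UMI, or 1.86% and 2.18% after thinning, were above the shares in B cells of the same library and far below those in LECs. Thinning left out 153 WT and 116 ATG5 KO BECs.

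**Figure D1:**
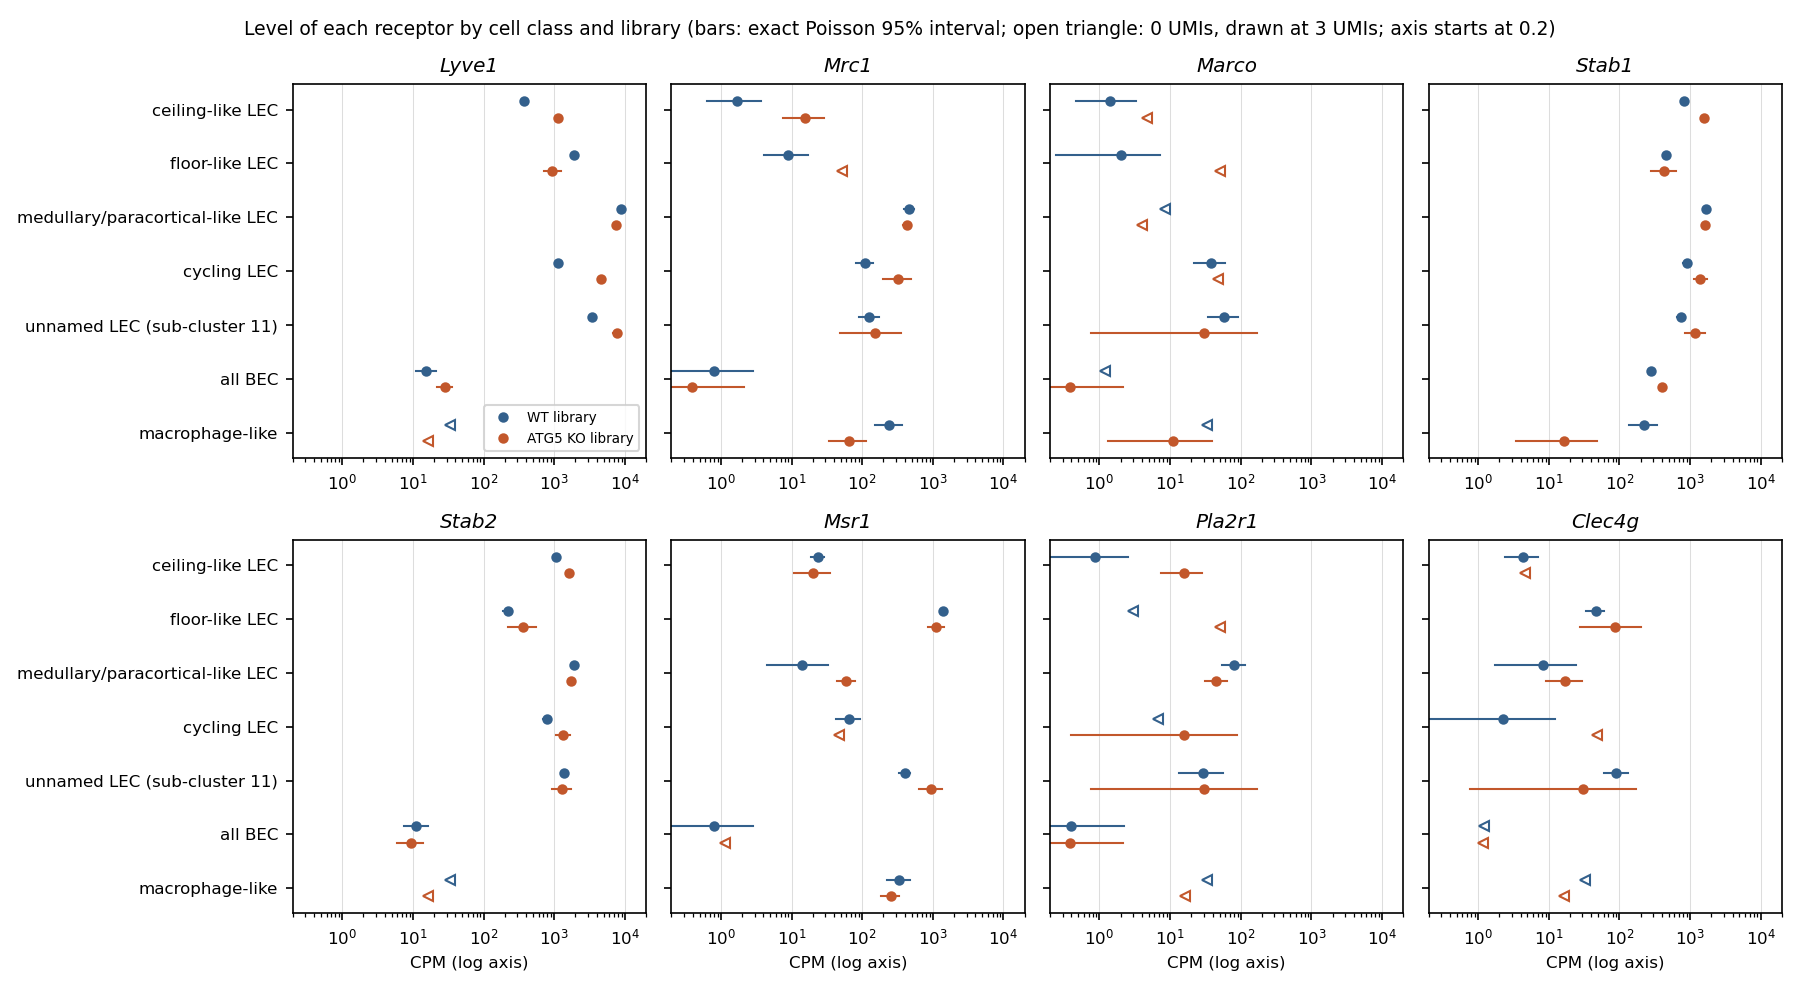
Level of each receptor (CPM, log axis) in 5 LEC classes, all BECs and macrophage-like cells, with the WT library in blue and the ATG5 KO library in orange. Points are class sums, bars are exact Poisson 95% intervals, and open triangles mark classes with 0 UMIs, drawn at 3 UMIs; in the WT library Lyve1 and Mrc1 are highest in medullary or paracortical-like LECs and Msr1 in floor-like LECs, and Stab1 alone stays above 100 CPM in BECs of both libraries.

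LEC sub-clusters were named from marker lists that contained none of the 8 receptors, and the receptors were kept out of the genes used for clustering. Ceiling-like cells (Ackr4, Ackr3, Cav1, Flrt2) made up 439 of the 716 WT LECs and 96 of the 212 ATG5 KO LECs. Floor-like cells (Madcam1, Ccl20, Coch, Csf1, Bmp2, Itga2b) numbered 127 and 7. Medullary or paracortical-like cells (Ptx3, Itih5, Kcnj8, Il33, Cd274) numbered 44 and 91, which is 6.15% (4.5 to 8.16) of WT and 42.9% of ATG5 KO LECs. In this class Il33 and Cd274 were low, at 13.9 CPM each in WT, so that the name rests on Ptx3 (404 CPM), Itih5 (479) and Kcnj8 (66.9), which are known as paracortical markers. Its leading genes also included the interferon-responsive Rsad2 and Ifi204 and the imprinted H19 and Igf2. Its 5 naming markers summed to 978 CPM in the WT cells of the class and to 529 CPM in the ATG5 KO cells. A further sub-cluster of 41 and 6 cells, led by Scn8a, Kazn and Apoe, was left unnamed because it resembled more than 1 niche. Its floor score (0.97) and its medullary or paracortical score (0.77) both passed the threshold of 0.75. They lay closer together than the margin of 0.3 required for a name. Another 43 and 9 LECs were cycling, and 22 and 3 resembled valve or collecting cells.

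Lyve1 differed widely between the niches. In the WT library it stood at 8882 CPM (8576 to 9196) in medullary or paracortical-like LECs, 3467 (3262 to 3681) in the unnamed sub-cluster, 1889 (1804 to 1976) in floor-like LECs, 1121 in cycling LECs, 374 (354 to 395) in ceiling-like LECs and 59.9 in valve or collecting-like LECs. None of these neighbours overlapped in their counting intervals. The medullary or paracortical-like level was 23.7 times the ceiling-like one (22.2 to 25.3), and 3 of the 6 receptors with enough counts were at least 2-fold higher there, against 8.58% of 10238 genes. Of these 3, Mrc1 and Pla2r1 had 6 and 3 UMIs in ceiling-like LECs and had enough counts only through the class where they were high. The count of 3 therefore describes the set and is no test of it. Per cell, the WT medullary or paracortical-like LECs held a median of 65.5 Lyve1 UMIs and up to 251, and 43 of 44 held at least 1. Ceiling-like LECs held a median of 0, with 81 of 439 cells positive and a highest cell of 109. In the ATG5 KO library the 6 unnamed cells (7757 CPM, 6836 to 8768) and the medullary or paracortical-like LECs (7596, 7401 to 7795) could not be told apart by their intervals, and cycling LECs had 4665, ceiling-like LECs 1114 (1033 to 1198) and floor-like LECs 944 (711 to 1229). The medullary or paracortical-like over ceiling-like ratio was 6.82 there (6.31 to 7.38), a smaller step than in WT.

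Mrc1 and Pla2r1, both of the mannose receptor family, had their highest WT levels in the medullary or paracortical-like LECs. Mrc1 had 166 UMIs in the 44 WT medullary or paracortical-like LECs (463 CPM, 395 to 539) and 6 UMIs in the 439 ceiling-like ones (1.72 CPM, 0.63 to 3.74), a ratio of 269 (121 to 744) that was 105 with only cells of at most 10% mitochondrial UMIs. The unnamed sub-cluster (126 CPM) and cycling LECs (109) lay between and could not be told apart from each other by their intervals in the WT library, while floor-like LECs had 9.02 CPM (4.12 to 17.1). Of the 49 Mrc1 UMIs in WT cycling LECs, 47 lay in sub-cluster 10, so the cycling level is not that of every cycling cell. Of the Mrc1 UMIs in called WT cells, 52.4% lay in medullary or paracortical-like LECs and 9.46% in myeloid cells. The 2 shares were 84% and 5.25% in the ATG5 KO library. The macrophage markers C1qa, C1qb, C1qc, Adgre1, Siglec1 and Cd163 had 0 UMIs in the medullary or paracortical-like LECs of both libraries. Mertk was the only one of the 7 listed macrophage markers found there, and the list summed to 25.1 and 25.2 CPM, against 1773 and 1643 in macrophage-like cells.

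Pla2r1 followed the same pattern at far fewer counts. It had 29 UMIs in WT medullary or paracortical-like LECs (80.8 CPM, 54.1 to 116), 9 in the unnamed sub-cluster (29.2 CPM), 3 in ceiling-like LECs (0.859 CPM) and 0 in floor-like and cycling LECs. The ratio of medullary or paracortical-like over ceiling-like LECs was 94.1 (29.2 to 483). In WT, 13 of the 44 medullary or paracortical-like cells had a Pla2r1 UMI and no cell had more than 8. The ATG5 KO library had 34 UMIs in this class (45.1 CPM, 31.2 to 63) and 10 in ceiling-like LECs (15.6 CPM, 7.49 to 28.7), a smaller step of 2.89 (1.39 to 6.55). Of the family's other genes, 2 were on the lists used below. In WT, Ly75, the lectin DEC-205, had 11.1 CPM in medullary or paracortical-like, 22 in floor-like and 17.5 in ceiling-like LECs, and Mrc2 had too few UMIs to place, with 2, 1 and 4 in the same classes.

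The stabilins were spread more evenly. Stab1 had a UMI in 92.6% of WT LECs and 98.1% of ATG5 KO LECs. Across WT classes it ran from 1655 CPM (1525 to 1794) in medullary or paracortical-like LECs through 991 in valve or collecting-like, 891 in cycling, 832 (802 to 863) in ceiling-like and 756 (662 to 859) in unnamed LECs down to 456 (415 to 500) in floor-like LECs. The middle 4 classes overlapped with their neighbours in counting intervals, whereas the top and the bottom stood apart. Stab2 went from 1909 CPM (1769 to 2058) in medullary or paracortical-like and 1362 (1235 to 1499) in unnamed LECs over 1051 (1017 to 1086) in ceiling-like and 780 in cycling LECs to 306 (224 to 408) in valve or collecting-like and 219 (191 to 251) in floor-like LECs, the last 2 overlapping.

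Floor-like LECs were thus low for both stabilins, and for Stab2 the gap to ceiling-like LECs was 4.79-fold. Only 60 of 127 floor-like cells in WT had a Stab2 UMI, against 380 of 439 ceiling-like cells. Of the 5 receptors tested between these classes in WT, Stab2 was the only one at least 2-fold lower in floor-like LECs. In the ATG5 KO library the medullary or paracortical-like over ceiling-like ratios of both stabilins were near 1: 1.03 (0.947 to 1.12) for Stab1 and 1.05 (0.969 to 1.14) for Stab2, against 1.99 (1.82 to 2.17) and 1.82 (1.67 to 1.97) in WT.

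Within the ceiling-like class the 2 stabilins differed by sub-cluster. Stab2 was highest in sub-cluster 5, led by the guidance ligand Slit2, at 3065 CPM in WT and 3438 in ATG5 KO. In WT it was lowest in sub-cluster 7, led by Igfbp5 and the NADPH oxidase genes Duoxa2 and Duox2, at 405 CPM. That sub-cluster had 1059 CPM in the ATG5 KO library, where sub-clusters 9 (946 CPM) and 3 (901) were lower. Stab1 stood at 1133 and 1435 CPM in the same 2 sub-clusters in WT, so that the WT ceiling-like sub-cluster lowest in Stab2 was the highest in Stab1.

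Msr1 marked another niche. In WT it had 1391 UMIs in the 127 floor-like LECs (1394 CPM, 1321 to 1469), which held 81.8% of the Msr1 UMIs of called WT cells. The unnamed sub-cluster had 399 CPM (332 to 476), cycling LECs 64.6, ceiling-like LECs 23.5 (18.7 to 29.1) and medullary or paracortical-like LECs 13.9 (4.52 to 32.5), the last 2 overlapping. The floor-like level was 59.4 times the ceiling-like one (47.5 to 75.1), or 29.5 times with only cells of at most 10% mitochondrial UMIs, and 101 of 127 floor-like cells held a UMI, with a median of 8 and up to 46. The 7 floor-like cells of the ATG5 KO library had 1116 CPM (861 to 1422), but 44 of their 65 UMIs came from 1 cell. Floor-like LECs were also above ceiling-like ones for Lyve1 in WT, by 5.05-fold (4.7 to 5.42), and for Clec4g, by 10.7-fold (5.88 to 20.7). With Msr1 and these 2 higher and Stab2 lower, 4 of the 5 receptors passed 2-fold between the classes, where 22.9% of 10651 genes did. Clec4g, with 15 UMIs in ceiling-like LECs, had enough counts only through the floor-like ones, and the count is no test of the set. The other class A receptor, Marco, had 43 UMIs in 11 of 716 WT LECs. Its 5 highest cells held 86% of them, the top pair with 17 and 15 UMIs, and these lay mostly among cycling (17 UMIs in 1 cell) and unnamed LECs (18 UMIs in 3 cells).

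Marco is a textbook marker of medullary sinus LECs, yet it had 0 UMIs in the medullary or paracortical-like class, in 0 of 44 WT and 0 of 91 ATG5 KO cells, which allows shares of cells with a UMI of up to 6.82% and 3.3%. The floor of 3 counts stands for 8.36 CPM in the WT class and 3.98 CPM in the ATG5 KO class, so that a low level is not excluded at this depth. With Marco at 0 and the class held together by paracortical markers, the medullary part of its name has no support from these values; the name is kept as that of the marker list. Clec4g had its highest WT level in the unnamed sub-cluster (28 UMIs, 90.8 CPM, 60.3 to 131), followed by floor-like LECs (46.1 CPM, 33.7 to 61.5), with 8.36 CPM in medullary or paracortical-like and 4.29 (2.4 to 7.08) in ceiling-like LECs. The unnamed sub-cluster exceeded ceiling-like LECs by 2-fold or more in 5 of the 7 receptors tested in WT, against 8.51% of 10193 genes. The 2 exceptions were the stabilins, with ratios of 0.908 for Stab1 and 1.3 for Stab2. Mrc1, Marco and Clec4g had 6, 5 and 15 UMIs in ceiling-like LECs, so they had enough counts only with those of the unnamed sub-cluster. Of its 18 Marco UMIs, 17 lay in 2 cells. The count of 5 therefore describes the set and is no test of it.

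**Figure D2:**
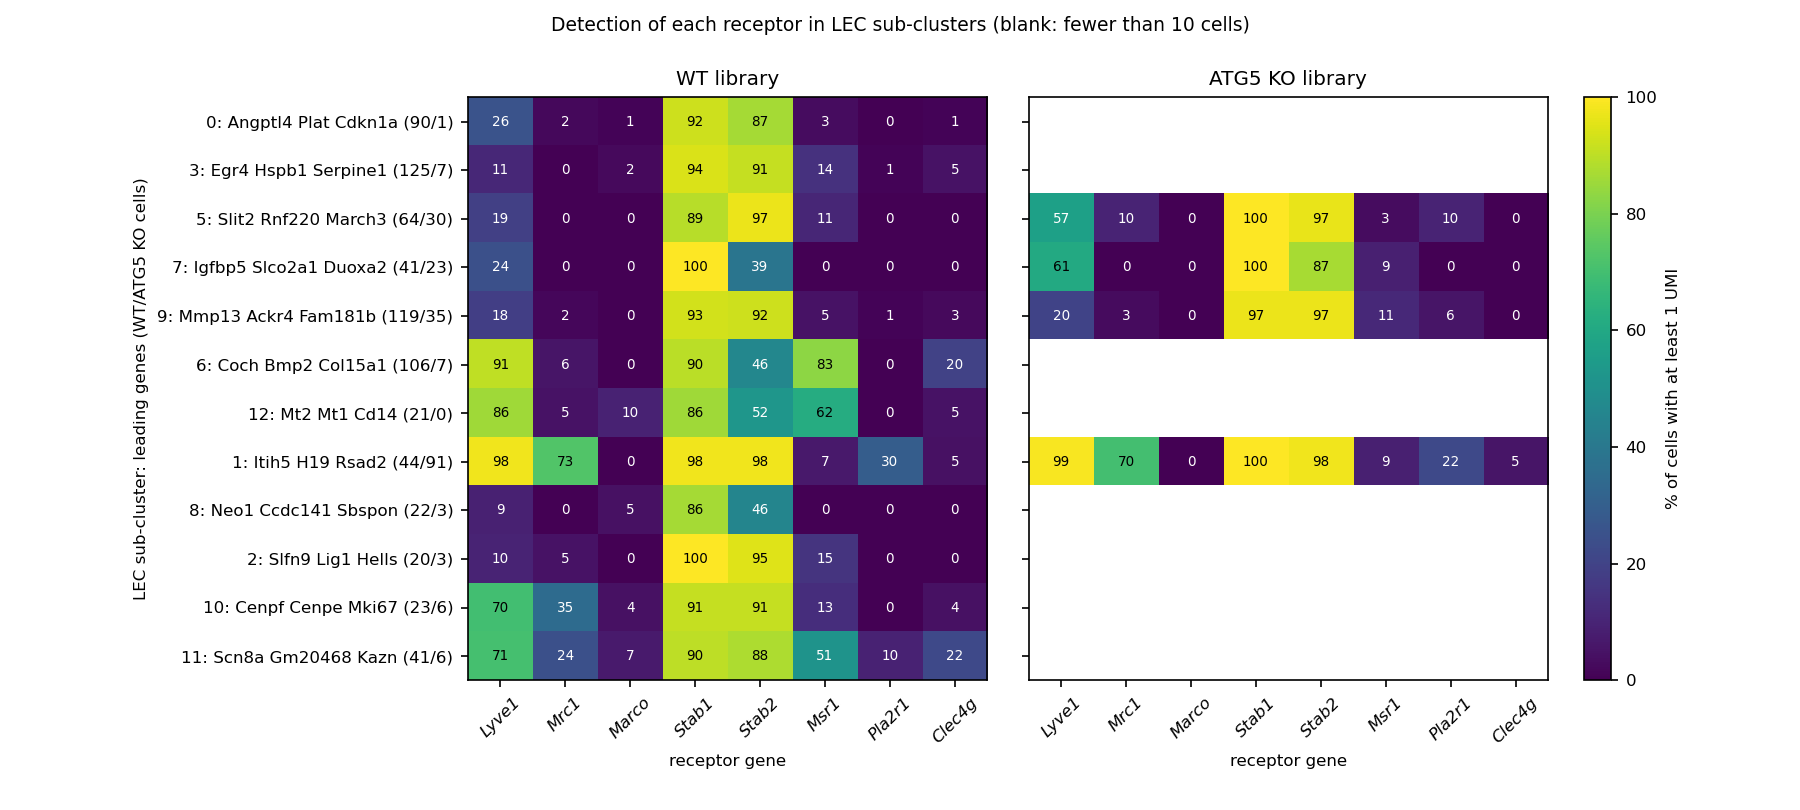
Share of cells with at least 1 UMI of each receptor (percent, colour and printed number) in the 12 LEC sub-clusters of each library, not thinned; cell numbers are given as WT/ATG5 KO and sub-clusters with fewer than 10 cells are blank. Lyve1 is in 98% of WT and 99% of ATG5 KO cells of sub-cluster 1 (medullary or paracortical-like), Msr1 in 83% of WT cells of sub-cluster 6 (floor-like), and Stab1 in at least 85.7% of cells of every sub-cluster shown.

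Receptors that shared a niche were found in the same cells. In WT, 61 of 62 LECs with an Mrc1 UMI (98.4%, 91.3 to 100) also held Lyve1, against 34.6% of the LECs without Mrc1. The ATG5 KO library had 74 of 74, against 52.9%. The reverse share was lower: Mrc1 was found in 21.3% (16.7 to 26.4) of Lyve1-positive WT LECs and in 0.233% of Lyve1-negative ones, and in 50.3% (42 to 58.7) and 0 of 65 in the ATG5 KO library, which allows up to 4.62% by a limit of 3 counts. After thinning, the positive shares were 17.2% and 41.2%. Within the medullary or paracortical-like class the Mrc1 share of Lyve1-positive cells was alike in the 2 libraries, 74.4% (58.8 to 86.5) and 71.1% (60.6 to 80.2). Pla2r1-positive LECs carried Mrc1 in 14 of 19 WT cells and in 20 of 27 ATG5 KO cells, against 6.89% and 29.2% of the LECs without Pla2r1.

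Msr1 had a different partner pattern. In WT it was in 44.6% (38.8 to 50.6) of Lyve1-positive and 8.62% (6.15 to 11.7) of Lyve1-negative LECs, and of the Msr1-positive LECs 77.6% held Lyve1 but only 8.48% held Mrc1, which is close to the 8.71% among Msr1-negative LECs. In the ATG5 KO library, where floor-like cells were few, Msr1 was in 11.6% (6.88 to 17.9) of Lyve1-positive and 10.8% (4.44 to 20.9) of Lyve1-negative LECs. Clec4g-positive WT LECs held Msr1 in 72.7% (57.2 to 85) of 44 cells, against 19.8% of Clec4g-negative ones, and Lyve1 in 90.9%. Stab2 was less frequent among Lyve1-positive than Lyve1-negative LECs in WT, 72.8% (67.3 to 77.9) against 83.9% (80.1 to 87.3), and more frequent among them in the ATG5 KO library, 97.3% (93.2 to 99.3) against 84.6% (73.5 to 92.4). Thinning kept both directions, at 63% against 70.8% and 93.4% against 71.9%. These shares pool the niches: in WT, 114 of 127 floor-like LECs held Lyve1 but only 60 held Stab2. The ATG5 KO library had 7 floor-like LECs, and the part of the niche mix in the Stab2 shares was not tested.

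Counted per cell, WT LECs held a mean of 2.54 of the 8 receptors and ATG5 KO LECs 3.24. At least 4 were found in 19.6% of WT and 41% of ATG5 KO LECs, and in 11.8% and 31% after thinning. By class the share with at least 4 was 72.7% and 75.8% for the medullary or paracortical-like class, 47.2% for WT floor-like LECs, and 4.33% and 8.33% for ceiling-like LECs. BECs held a mean of 0.516 and 0.675 receptors, almost all of it Stab1, and B cells 0.0347 and 0.0179.

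**Figure D3:**
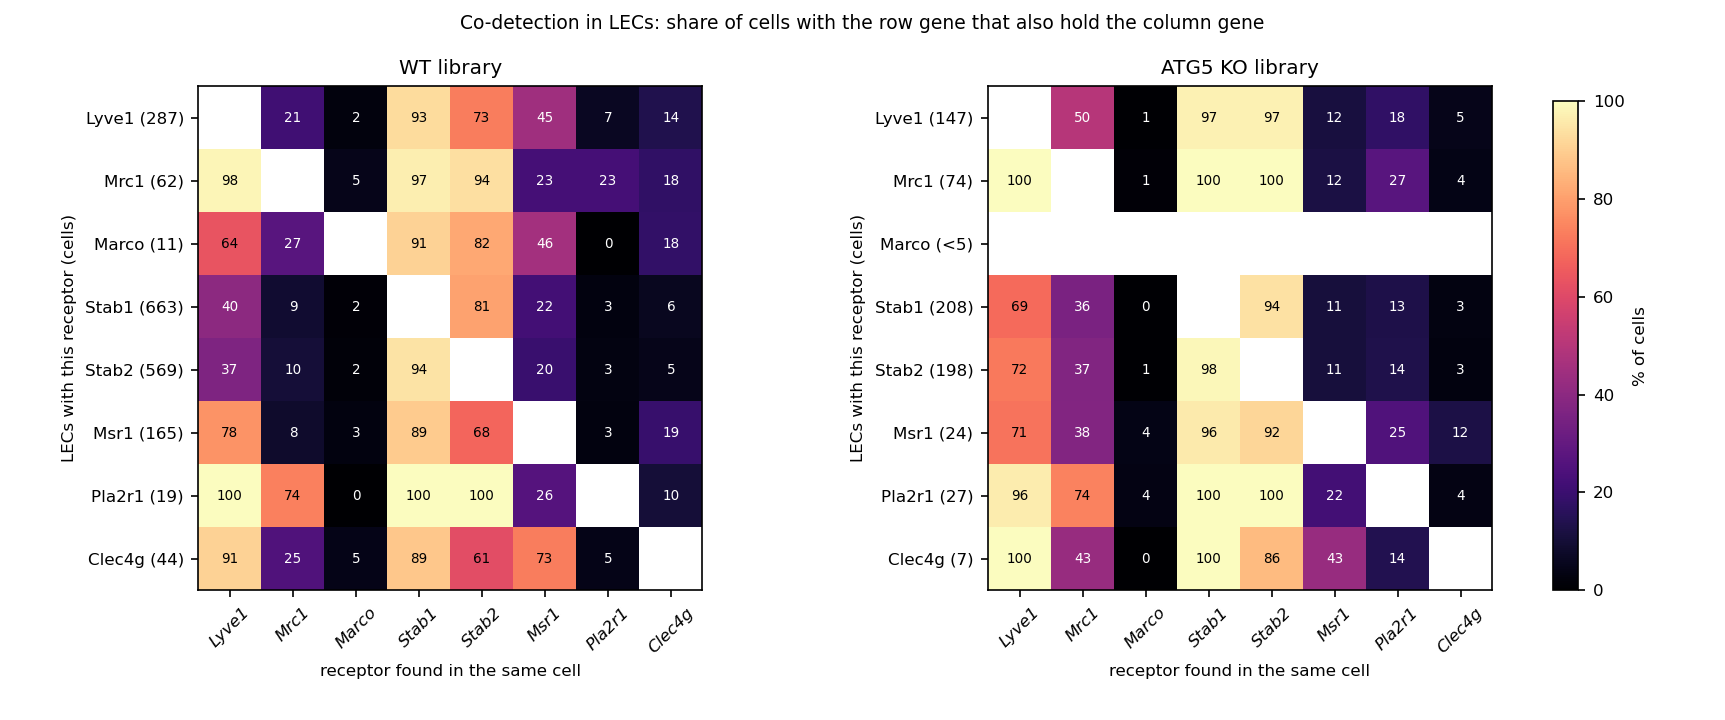
Share of LECs positive for the receptor of each row (number of cells in brackets) that also held a UMI of the receptor of each column, in percent and not thinned, for the WT and the ATG5 KO library; fewer than 5 positive cells leave a row blank. Mrc1-positive cells almost always held Lyve1 (98% and 100%), while Lyve1-positive cells held Mrc1 in 21% and 50%, and Msr1 in 45% and 12%.

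Among blood endothelial cells Stab1 varied by vessel type. It was highest in venous-like BECs (Ackr1, Selp, Vwf), at 972 CPM over 17 cells in WT and 747 over 7 in the ATG5 KO library, with every one of those cells positive. Tip-like BECs (Esm1, Angpt2, Apln) had 424 and 478 CPM, but different sub-clusters made up this class. Its sub-cluster 9, led by the interferon-responsive Cxcl9, Cxcl10 and Gbp2 and with no tip-like marker among its leading genes, had 2 of the 113 WT and 62 of the 206 ATG5 KO cells, and without it the levels were 432 and 524 CPM. The remaining sub-clusters differed in level. Sub-cluster 1 had 694 CPM in 53 WT cells and 611 in 99 ATG5 KO cells, a ratio of 0.881 whose interval (0.752 to 1.03) spanned 1. Sub-cluster 4 had 151 CPM in 58 WT cells and 241 in 45 ATG5 KO cells, a ratio of 1.6 (1.07 to 2.4) on 49 and 55 UMIs. Arterial-like BECs had 215 CPM in each library, and capillary-like BECs had 127 and 146. High endothelial venule (HEV)-like BECs (Glycam1, Chst4) had 182 CPM (71 UMIs) in WT and 378 (97 UMIs) in the ATG5 KO library, a ratio of 2.08 (1.52 to 2.87). The share of HEV-like cells with Stab1 was 50.7% of 73 in WT and 82% of 50 in the ATG5 KO library, or 31.7% and 61.5% after thinning. The sex mix of HEV-like cells moved with it: those assigned a sex were 87% male in WT and 37.5% in the ATG5 KO library. Among all BECs the male shares were 85.8% and 67.4%. The part of sex was not tested, and the share of all genes past 2-fold was not computed for HEV-like cells. Over all BECs Stab1 stood at 284 and 398 CPM, a ratio of 1.4 (1.27 to 1.54), and 1.42 (1.28 to 1.56) without sub-cluster 9. None of the 3 receptors with enough counts in BECs passed 2-fold between the libraries, where 5.50% of genes did. The other tip-like cells numbered 111 of the WT and 144 of the ATG5 KO BECs, so the mix of BEC classes moved with this ratio, and its part in it was not tested. Lyve1 in BECs rested on few cells: 1 cell held 14 of the 39 WT UMIs and 1 venous-like cell held 40 of the 73 ATG5 KO UMIs.

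Myeloid cells shared only part of the set. Lyve1, Stab2 and Pla2r1 had 0 UMIs in the 51 WT and 71 ATG5 KO myeloid cells. Msr1 was found in 7 of 14 WT and 12 of 28 ATG5 KO macrophage-like cells, at 330 and 253 CPM, with a ratio of 0.765 (0.473 to 1.26). Neutrophil-like cells had it too, at 171 and 363 CPM in 12 and 17 cells. Mrc1 stood at 242 CPM in macrophage-like cells of the WT library and 66 in those of the ATG5 KO library, but 21 of the 22 WT UMIs came from 1 cell, and all 20 Stab1 UMIs of the WT macrophage-like cells likewise came from 1 cell. Of the 3 receptors tested in myeloid cells, Stab1 was the 1 past 2-fold, where 13.4% of genes were, and it rested on that cell. In the ATG5 KO library 36.5% of the Msr1 UMIs of called cells lay in myeloid cells, against 2.41% in WT.

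Summed over all LECs, the ATG5 KO library was higher than WT for 3 of 8 receptors at 2-fold or more and lower for 2. Thus 5 of 8 passed in either direction, where 10.3% of 11638 genes did (4.25% higher and 6.05% lower). Marco, among these 5, had 43 UMIs in WT LECs, of which 32 came from 2 cells, so its call rested on few cells. Lyve1 had 1383 CPM (1352 to 1413) in WT and 4462 (4359 to 4568) in ATG5 KO, a ratio of 3.23 (3.13 to 3.33), and its share of positive LECs was 40.1% and 69.3%. Mrc1 had 46.7 CPM (41.3 to 52.7) and 225 (202 to 249), a ratio of 4.81 (4.09 to 5.66). Pla2r1 had 41 and 46 UMIs, or 7.12 and 29.1 CPM, a ratio of 4.09 (2.63 to 6.39). The 3 receptors that were higher are those with the largest ratios of medullary or paracortical-like over ceiling-like LECs in WT, and the former cells were 6.15% of WT and 42.9% of ATG5 KO LECs.

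The receptors that were lower in the ATG5 KO LECs were the class A pair. Msr1 had 1630 UMIs (283 CPM) in WT and 154 (97.5 CPM) in ATG5 KO LECs, a ratio of 0.344 (0.29 to 0.407), and floor-like cells, which carried most of it, were 17.7% (15 to 20.7) and 3.3% (1.34 to 6.68) of the LECs. Marco had 43 UMIs and 1, a ratio of 0.0848 (0.0021 to 0.498), over 11 and 1 positive cells. Clec4g had 93 and 19 UMIs, and its ratio of 0.745 (0.429 to 1.23) spanned 1. Stab1 and Stab2 were higher in the ATG5 KO LECs short of 2-fold, with ratios of 1.86 (1.77 to 1.96) and 1.67 (1.6 to 1.76).

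The niche mix differed between the libraries as well, and its part in these ratios was not tested. With equal weight on the medullary or paracortical-like class and the ceiling-like class, the only niches with at least 20 cells in each library, the outcome depended on what was averaged. The geometric mean of the 2 class ratios was 1.6 for Lyve1, 1.37 for Stab1, 1.18 for Stab2 and 1.92 for Msr1, so that none of the 4 receptors with at least 20 UMIs in each class passed 2-fold. It was 2.89 for Mrc1 and 3.18 for Pla2r1, which would pass, but on ceiling-like ratios from 6 and 10 and from 3 and 10 UMIs. When the levels rather than the ratios were averaged, the direction of the pooled ratio turned for Lyve1 (0.941), Mrc1 (0.947) and Pla2r1 (0.743), and the stabilins stood at 1.3 and 1.13. Msr1 was higher in the ATG5 KO library under both averages (2.14 by levels), opposite to its pooled ratio. Floor-like LECs enter neither average, and the Msr1 values rest on the few medullary or paracortical-like UMIs described below. The sex mix moved too: the Lyve1 ratio over LECs was 2.2 in cells assigned male and 4.54 in cells assigned female.

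**Figure D4:**
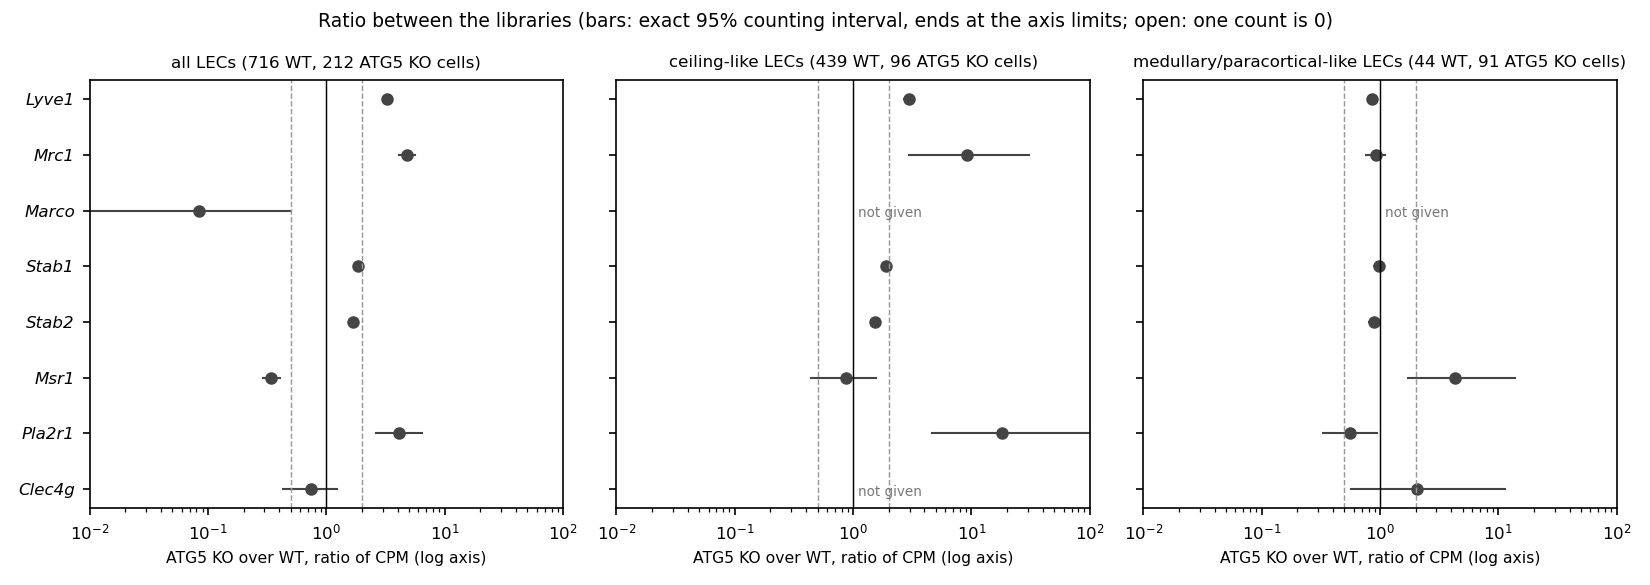
Ratio of each receptor's level, ATG5 KO over WT library (log axis), in all LECs and in the ceiling-like and the medullary or paracortical-like class, with exact 95% counting intervals; dashed lines mark 2-fold either way and "not given" marks pairs with too few counts. Lyve1 is at 3.23 in all LECs, 0.855 in the medullary or paracortical-like class and 2.98 in the ceiling-like one, and the last panel has Lyve1, Mrc1, Stab1 and Stab2 close to 1.

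Within medullary or paracortical-like LECs the best-counted receptors lay close together in the 2 libraries. The markers that name the class did not, with sums of 978 CPM in WT and 529 in ATG5 KO, so the cells compared were not alike throughout. Lyve1 had 8882 and 7596 CPM, a ratio of 0.855 (0.819 to 0.893), with median UMIs per cell of 65.5 and 60. Mrc1 had 463 and 424 CPM, a ratio of 0.917 (0.758 to 1.11), Stab1 1655 and 1637, a ratio of 0.989 (0.896 to 1.09), and Stab2 1909 and 1708, a ratio of 0.895 (0.815 to 0.983). Pla2r1 stood at 0.558 (0.33 to 0.949) on 29 and 34 UMIs. Msr1, with 5 UMIs in WT and 45 in ATG5 KO, was the 1 of 6 receptors past 2-fold, at 4.28 (1.71 to 13.8), where 8.71% of genes were. It rested on 2 ATG5 KO cells with 32 of the 45 UMIs, and its direction turned under 4 alternatives, with values down to 0.399 when only barcodes with at least 2000 UMIs were called.

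In ceiling-like LECs the ATG5 KO library was higher for Lyve1, at 374 and 1114 CPM, a ratio of 2.98 (2.71 to 3.26), the 1 of 4 receptors past 2-fold where 10.5% of genes were. The call did not hold in every subset: the ratio was 1.11 in cells assigned male, 16.3 in cells assigned female, and 1.09 with only cells of at most 10% mitochondrial UMIs. Different sub-clusters held this class in the 2 libraries. Sub-cluster 0 (Angptl4, Plat, Cdkn1a) had 90 WT cells and 1 ATG5 KO cell, and sub-cluster 3, led by immediate-early and stress genes such as Egr1, Egr4 and Hspb1, had 125 and 7. In the 3 sub-clusters with at least 20 cells in each library the Lyve1 ratio was 20.7 (120 and 2487 CPM) in the Igfbp5-led sub-cluster 7, 4.62 (235 and 1083 CPM) in the Slit2-led sub-cluster 5, and 0.72 (440 and 317 CPM) in sub-cluster 9, led by Mmp13 and the ceiling marker Ackr4. In sub-cluster 3 Lyve1 had 191 UMIs in WT and 0 in the ATG5 KO library. The direction of the Lyve1 difference therefore depended on the ceiling-like sub-cluster.

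Stab1 was higher in the ATG5 KO library in each of these 3 sub-clusters, with ratios of 1.29, 1.35 and 1.73 in sub-clusters 7, 5 and 9, and 1.91 (1.78 to 2.05) over the class. Stab2 had ratios of 2.61, 1.12 and 0.924 in the same order, and 1.54 (1.44 to 1.65) over the class. Mrc1, on 6 and 10 UMIs, had a ratio of 9.09 (2.99 to 30.4) that turned to 0.619 when only barcodes with at least 2000 UMIs were called and to 0.866 with doublet calls kept. Pla2r1 had 3 and 10 UMIs and a ratio of 18.2 (4.68 to 103), which was 1.14 with at most 10% mitochondrial UMIs. Msr1 stood at 0.865 (0.442 to 1.56) on 82 and 13 UMIs. In floor-like LECs, with 7 ATG5 KO cells, Lyve1 had a ratio of 0.5 and Msr1 0.8, and in cycling LECs, with 9, Lyve1 had a ratio of 4.16. The cycling class pooled unlike sub-clusters. Sub-cluster 2, with ceiling as its best marker list, had 57.6 CPM of Lyve1 in WT and a ratio of 61.9 over 20 and 3 cells. Sub-cluster 10, with medullary or paracortical as its best, had 2375 CPM in WT and a ratio of 2.16 over 23 and 6 cells.

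Other genes of receptor-mediated uptake were followed as lists in LECs, each read against all 11638 genes tested, of which 4.25% were higher and 6.05% lower at 2-fold, with a median log2 ratio of 0.03. Of 16 other scavenger receptors 10 had enough counts, none was higher at 2-fold and 2 were lower, with a median log2 ratio of -0.20. Cd36, the fatty acid and thrombospondin receptor, had 1956 CPM in WT and 914 in ATG5 KO LECs, a ratio of 0.467 (0.442 to 0.494), and was a ceiling-like gene in WT (2841 CPM, against 15 in floor-like LECs). Scara3 had 49 and 2 UMIs, a ratio of 0.149, and Colec12, a scavenger receptor with a collagen-like stalk, had a ratio of 0.612. Of 27 lectin, lipoprotein-type and Fc receptors 16 had enough counts, none was higher and 2 were lower, with a median of 0.11. The lower genes included the inhibitory IgG receptor Fcgr2b, at 122 and 3 UMIs (a ratio of 0.0896), while the abundant endocytic adaptor Dab2 stood at 0.979 and Clec1a at 1.16.

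All 35 genes of the clathrin, caveolar and early endosomal list had enough counts, and none passed 2-fold, where 10.3% of all genes did, with a median of -0.06. Cavin2 had a ratio of 1.01 and Cav1 0.731. Of 17 hyaluronan genes 10 were tested, with a median of -0.26. Vcan, the hyaluronan-binding proteoglycan versican, was the 1 higher gene at 4.47 (22 and 27 UMIs), and Cd44, the other main hyaluronan receptor, the 1 lower gene at 0.325. The hyaluronidases Cemip2 and Hyal2 stood at 0.855 and 0.703. Of 11 ligand genes 6 were tested and 2 were lower, Pla2g5 (24 and 2 UMIs, 0.304) and Postn (0.315), with Sparc, a Stab1 ligand, at 1.34 and a median of -0.20. Of 13 transcription factors of sinusoidal endothelium 12 were tested and the flow-responsive Klf2 was the 1 past 2-fold, at 0.4 (0.369 to 0.433). Klf4 stood at 0.5, just short of the threshold before rounding, and Maf at 0.881, with a median of -0.03. Several of the lower genes were floor-like genes in WT, as Msr1 was: Fcgr2b had 115 CPM in floor-like and 0.286 in ceiling-like LECs, Scara3 44.1 and 0.286, Cd44 143 and 4.01, and Postn 1525 and 41.8.

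Across 25 class and library sums with at least 20 cells each, the genes whose log2(CPM + 1) profile was most like that of each receptor were found among 8327 genes. These sums share libraries and depth, and include immune classes, so that the values describe cell types rather than independent samples. Lyve1 went most closely with the chemokine-scavenging receptor Ackr2 (Pearson r = 0.94), with Stab2 (0.94) and with the complement regulator Cd55 (0.93). Stab2 went with C1qtnf7 (0.97), Mmrn1 (0.95), an LEC marker, and Ackr2 (0.95). Stab1 went with Sh3bp5 (0.98), Entpd5 (0.97) and Sypl (0.96). Mrc1 was most like the complement component C3 (0.83), with Cstb at 0.76, and Msr1 like C3 (0.90), the alarmin Il33 (0.89) and the clathrin light chain Clta (0.87). Clec4g, on 123 UMIs, was most like Spib (0.83), Gria3 (0.82) and Med10 (0.79), and Marco and Pla2r1 had too few counts to rank. Within the receptor set, Lyve1 and Stab2 were the most alike pair, while Mrc1 and Stab1 had an r of 0.01 and Stab1 and Clec4g of -0.28.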

How the data were processed

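The labels' protocols describe nodes digested, stained and sorted into endothelial and immune cells, which were pooled into 1 library per genotype. Per the file headers, the authors processed the reads with the BD Rhapsody WTA Analysis Pipeline 1.11 on mm10, a build also named in the submitters' processing notes, and deposited whole-number molecule counts of each gene in each barcode, empty barcodes included and without normalization. The counts after the pipeline's error correction were used. Rhapsody captures transcripts at the 3' end. Nothing says that the 13 and 9 nodes were kept apart, so each library counted as 1 sample.

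Cells were called here at the knee of each library's UMI curve (4086 barcodes with at least 1229 UMIs in WT, 4378 with at least 1248 in ATG5 KO). Cells with fewer than 200 genes or over 25% mitochondrial UMIs were removed, and Scrublet then removed 29 (0.746%) and 31 (0.742%) calls. Cells of both libraries were clustered together in scanpy 1.11.5 (2000 variable genes without the 8 receptors, 30 components, 15 neighbours, Leiden resolution 1), and endothelial cells again to name sub-classes from 28 marker lists. Left out were sub-clusters whose leading genes belong to other cell types: 12 WT and 5 ATG5 KO LECs, and 120 and 34 BECs, the latter led by mural and B cell genes. Class names stand for resemblance to markers, thresholds for naming were chosen with the clusters in view, and the valve or collecting-like name passed narrowly (score 0.77, threshold 0.75).

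CPM were UMIs of a class over its total without mitochondrially encoded genes, with exact Poisson intervals. Ratios carry exact conditional binomial intervals and shares of cells Clopper-Pearson intervals, all at 95%. These treat UMIs as independent, which can make them too narrow. For 0 UMIs a floor of 3 counts was used. By a rule added with the data in view, no ratio is printed where neither count exceeds 3 or where that floor would reverse the direction. A gene was called at a ratio of at least 2 or at most 0.5 with at least 20 UMIs. The counting steps were tested on simulated data. All 8 receptors are named; by rule, so are the 3 most alike genes of each receptor and, of each of 6 gene lists, the 3 largest and 3 smallest ratios past 2-fold and the 2 most abundant genes, except 2 genes that are not reported here. Receptors and lists were chosen with earlier results of these data known.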

Additional observations from a re-analysis of the deposited data

Results flagged for a closer look

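The Lyve1 ratio of ATG5 KO over WT was 2.98 in ceiling-like LECs and 0.855 in medullary or paracortical-like LECs, which lie on opposite sides of 1. The contrast was not kept under every alternative: the ceiling-like ratio was 1.11 in cells assigned male and 1.09 with at most 10% mitochondrial UMIs, and the other was 1.03 with doublet calls kept and 1.06 at Leiden resolution 2. Stab2 showed the same contrast, at 1.54 and 0.895. The difference between the niches was not tested, because each library is 1 sample.

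Receptor UMIs also appeared in barcodes with fewer than 100 UMIs, which hold no called cell and enter no comparison above. The 8 receptors summed to 953 CPM there in the WT library and to 614 CPM in the ATG5 KO library. Stab2 was the main part, at 477 and 284 CPM, followed by Lyve1 at 202 and 159 and Stab1 at 200 and 147. In B cells, which were called cells of the same libraries, Stab2 stood at 10.6 and 1.7 CPM.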

How the results depend on the processing

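The count of 5 receptors past 2-fold in LECs was 2 of 6 by the geometric mean of the niche ratios, 0 of 4 when that mean took only receptors with at least 20 UMIs in each class, and 1 of 7 (Msr1) by equally weighted niche levels, the last 2 chosen after seeing the data. It was within 1.5 times under the other alternatives run: it was 4 with a minimum of 50 UMIs and 7 at 1.5-fold, where 24.4% of genes passed. The Lyve1 ratio of medullary or paracortical-like over ceiling-like LECs in WT was 17.1 from barcodes with at least 2000 UMIs, 18 with at most 10% mitochondrial UMIs, 16.7 with doublet calls kept, 21.2 with the receptors among the variable genes and 26.5 at Leiden resolution 2. With at most 10% mitochondrial UMIs the Mrc1 ratio was 105, the Msr1 floor-like over ceiling-like ratio 29.5, the Stab1 ratio of LECs over BECs 3.54 (3.4 with doublet calls kept), and the share of Lyve1-positive ATG5 KO LECs with Mrc1 59.4% (41.2% thinned). Directions turned for Mrc1 in ceiling-like LECs (0.619 from 2000 UMIs, 0.866 with doublets kept), for Lyve1 in medullary or paracortical-like LECs (1.03 with doublets kept, 1.06 at resolution 2), for Msr1 there (0.399 from 2000 UMIs, 0.511 with doublets kept, 0.495 at resolution 2, 0.636 in male cells) and, over LECs, with equal niche weights on ratios for Msr1 (1.92) and on levels for Lyve1 (0.941), Mrc1 (0.947), Pla2r1 (0.743) and Msr1 (2.14). The cause was not tested. Of 218 alternative values of the ratios between libraries, 141 stayed within the counting interval, 64 moved out of it with no turn counted and 13 turned. No paired analysis was possible because each genotype has 1 library. Marco, Pla2r1 and Clec4g are limited by their few counts.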
